A study of Mus musculus with 6 samples.

Results

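The primary cilium is built and kept by a set of protein machines whose genes were followed here in bulk RNA of the newborn mouse cerebellum. A list of 58 names covered the intraflagellar transport (IFT) complexes, the dynein-2 motor, the BBSome, the transition zone, ciliary membrane proteins, the basal body and the EvC zone. Genes were taken by matching these names to the gene names of the count table, which found 57 of 58 names among 54532 genes, and all 57 passed the filter on low counts that left 17505 genes to test. The remaining name, *Talpid3*, is a RefSeq synonym of *2700049A03Rik*. That gene is described apart and enters none of the counts of the 57.

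The 6 libraries came from cerebella at postnatal day 1. Controls (Ctrl, 3 libraries) were labelled as littermates of genotype *Tox3* f/f without Cre, and the conditional knockouts (cKO, 3 libraries) as *Nestin-cre;Tox3* f/f, so both groups carried the same floxed alleles. Nestin-Cre expresses Cre recombinase across the developing nervous system, and since every cKO and no Ctrl library carried the transgene, the transgene and the deletion cannot be told apart. The labels do not say whether each library was a separate animal, so the p-values measure the spread between these samples.

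A primary cilium is an antenna-like projection that grows from the mother centriole, which becomes the basal body. IFT-B trains pulled by kinesin-2 carry cargo to the tip, IFT-A trains pulled by dynein-2 carry it back, the BBSome takes membrane receptors out, and the transition zone at the base gates what enters. In granule neuron progenitors of the cerebellum, Hedgehog signalling runs through this organelle: Patched and Smoothened move in and out of the ciliary membrane, and Gli factors are processed along it. The question these libraries can address is whether the RNA of the machinery itself differed in the *Tox3* mutant cerebellum.

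Transition zone promoters are shown first, since many of them share a sequence. The X-box is the imperfect palindrome bound by RFX transcription factors, which are known regulators of ciliary genes. Promoter windows of 300 bases, from 250 before to 50 after the RefSeq start site (GRCm38.p6), were available for 52 members, and a match to the X-box consensus on either strand was found in 12 of them, or 23.1%, against 3.06% of 27025 genes with a window. Of the 13 transition zone members with a window, 7 held a match. Their sites are given 5′ to 3′ on the strand of the gene, with the matched 14 bases in capitals and up to 8 bases on each side.
Ahi1, chr10:20952560-20952589, + strand: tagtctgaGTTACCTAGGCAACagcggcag
B9d2, chr7:25680788-25680817, + strand: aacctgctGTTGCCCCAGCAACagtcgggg
Mks1, chr11:87853183-87853212, + strand: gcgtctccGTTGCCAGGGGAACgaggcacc
Nphp4, chr4:152477903-152477932, + strand: cggtgcccGTCTCCTAGGTAACgcgccagc
Tctn1, chr5:122264411-122264432, - strand: ctgtgactGTTGCCCGGGCAAC
Tmem216, chr19:10555723-10555752, - strand: tgtacgcaGTTTCCATGGGGACtgaacatg
Tmem231, chr8:111933781-111933810, - strand: cgccgtcgGTTGCCGTGGAGACtcggcgct

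The other 5 members with an X-box match were *Bbs1*, *Bbs4*, *Bbs7*, *Ift22* and *Ift57*. A shorter motif, the X-box core GTTGCC (read as GGCAAC on the other strand), was found in 23 of 52 members (44.2%) and in 14.1% of all genes with a window. It lay inside the X-box match of 8 members, and 14 members held the core without an X-box match. The E-box CAGCTG, a sequence of the kind bound by *Atoh1* and other basic helix-loop-helix factors, was found in 8 of 52 members (15.4%) and in 18.3% of all genes. None of the 12 members with an X-box match differed between the groups at an adjusted p under 0.05, and their median log2 fold change was -0.02. Of the 40 members with a window and no match, 9 did, near the 25.1% of all tested genes, with a median of -0.08, and the difference between members with and without a match was not tested. The core windows of 3 members that did differ, and of *2700049A03Rik*, are shown with the 6 bases of the core in capitals.
Ift27, chr15:78174073-78174102, - strand: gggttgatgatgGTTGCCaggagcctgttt
Tctn2, chr5:124598750-124598779, + strand: cattgattggtgGTTGCCatggctgcaggc
Evc, chr5:37337047-37337076, - strand: ctcaggactcagGGCAACctgaacgctcag
2700049A03Rik, chr12:71136837-71136866, + strand: ttccttttccacGGCAACggaatctgtcga

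**Figure D1:**
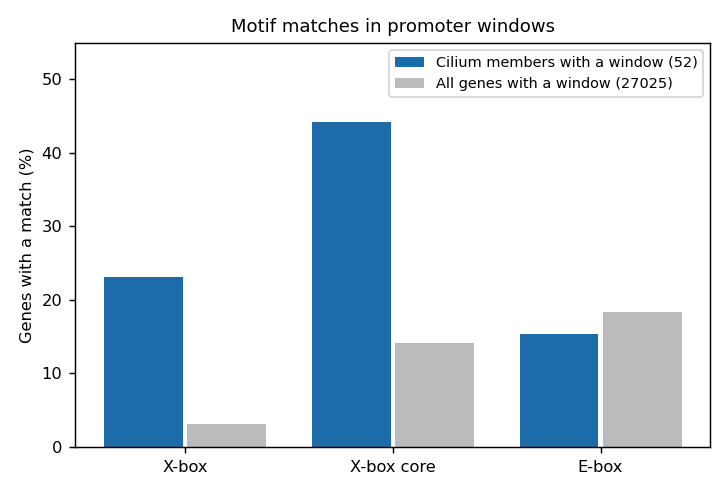
Share of genes (vertical axis, percent) whose RefSeq promoter window of 300 bases held a match to the X-box, its core or the E-box, for the 52 cilium members with a window and for all 27025 genes with one. The X-box was matched in 23.1% of the members and 3.06% of all genes, whereas the E-box was matched in 15.4% and 18.3%.

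All 57 genes were read in both groups at modest levels. On the deposited FPKM scale, which divides by gene length, the Ctrl means of the members ran from 0.851 for *Bbs10*, a chaperonin-like protein of BBSome assembly, to 76.8 for *Arl3*, a GTPase that releases lipid-modified cargo inside the cilium. Their median was 5.2 FPKM, beside 5.25 FPKM for all tested genes. Only *Arl3*, *Ift20* (18.8 FPKM) and *Ahi1* (15.9 FPKM) reached 15 FPKM, while 26 members lay between 5 and 15 FPKM and 28 lay under 5 FPKM. The counts behind these levels ran from 25 to 2224 per library, with a median of 374.5, and the coefficient of variation of a member within a group had a median of 6.48% in Ctrl and 6.78% in cKO.

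**Figure D2:**
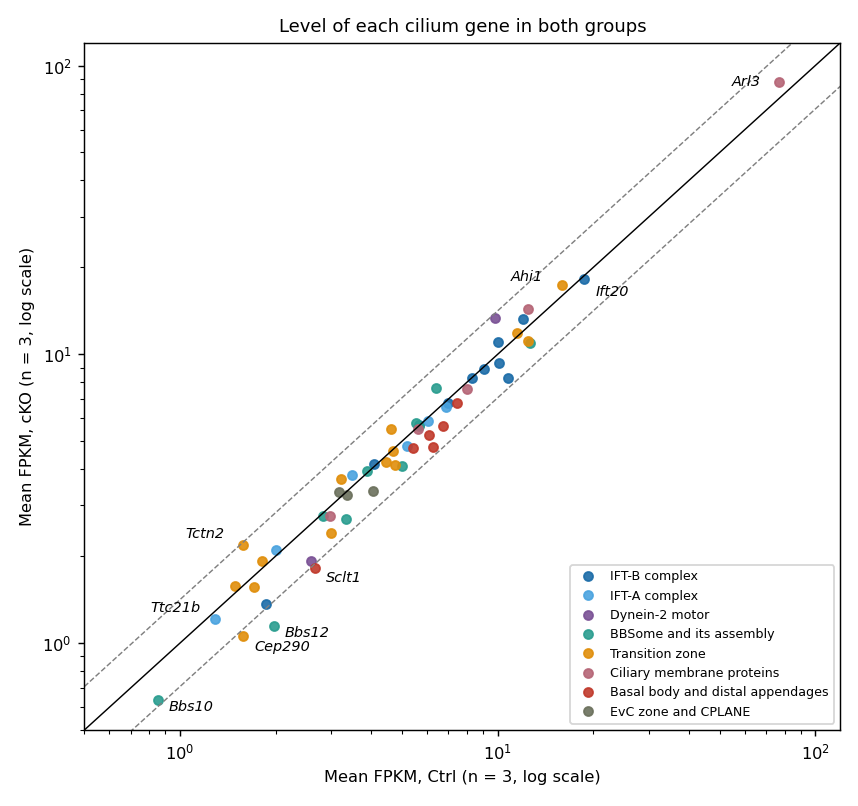
Mean FPKM of each of the 57 cilium genes in Ctrl (horizontal axis) and cKO (vertical axis), 3 libraries each, both on log scales and coloured by complex. The solid line marks equal levels and the dashed lines a log2 difference of 0.5 in either direction, and most genes lie close to the solid line from 0.851 to 76.8 FPKM.

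The order of FPKM levels differed between complexes. Among IFT-B genes, *Ift20* was the highest and *Ift80* the lowest at 1.86 FPKM. *Ift140* (6.89 FPKM) and *Ttc21b* (1.29 FPKM) were the ends of the IFT-A set, and *Dync2li1* (9.83 FPKM) stood above *Dync2h1* (2.59 FPKM) in the dynein-2 pair. In the BBSome set *Arl6* (12.6 FPKM) was highest and *Bbs10* lowest, and in the transition zone *Ahi1* was highest and *Rpgrip1l* (1.49 FPKM) lowest. Ciliary membrane proteins ran from *Arl3* down to *Arl13b* (2.97 FPKM), basal body genes from *Ttbk2* (7.43 FPKM) to *Sclt1* (2.66 FPKM), and the EvC zone set from *Evc* (4.06 FPKM) to *Fuz* (3.16 FPKM). The gene lengths behind FPKM came from the authors' table, and for 27 of 57 members they exceeded 1.5 times the longest annotated transcript, as for *Ift80* (12428 against 7616 bases) and *Rpgrip1l* (14688 against 7009 bases). With CPM divided by the longest transcript instead, 11 of the 16 genes named as highest or lowest kept that place. The exceptions were *Ift140*, *Rpgrip1l*, *Ttbk2*, *Sclt1* and *Fuz*, whose places went to *Ift43*, *Nphp4*, *Cep83*, *Ofd1* and *Evc2*.

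Across the 57 genes the cKO and Ctrl libraries differed little. The median log2 fold change (cKO minus Ctrl) was -0.05, with 38 genes below 0 and 19 above it, beside a median of -0.01 over all tested genes, of which 50.9% lay below 0. Summed over the members, the level was 1708, 1749 and 1709 CPM (counts scaled to a common library size) in the Ctrl libraries and 1653, 1678 and 1690 CPM in the cKO libraries, a difference of -2.81%. All 3 cKO sums lay below all 3 Ctrl sums, by a small margin. This order rests on the TMM scaling of library totals, with factors of 0.991 for Ctrl 1 and 1.009 for cKO 3. Without these factors the cKO 3 sum lay above the Ctrl 1 sum. The log2 fold change was smaller than 0.5 in either direction for 54 of 57 genes, the exceptions being *Bbs12*, *Cep290* and *Sclt1*, and smaller than 0.25 for 41.

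By the edgeR quasi-likelihood test with Benjamini-Hochberg adjustment over all tested genes, 11 of 57 members (19.3%) passed an adjusted p of 0.05, where 25.1% of all tested genes did. Of these, 8 fell (*Ift80*, *Ift27*, *Bbs12*, *Cep290*, *Cep89*, *Sclt1*, *Cep83* and *Evc*; background 12.9%) and 3 rose (*Dync2li1*, *Tctn2* and *Gpr161*; background 12.2%). Under the stricter rule, an adjusted p under 0.01 together with a log2 fold change beyond 0.5, *Sclt1* alone passed (1.75% of members), where 6.66% of all tested genes did, 3.63% lower and 3.03% higher. Leaving out the library cKO 2 raised this count to 4, where 7.48% of all genes passed. Leaving out any one of Ctrl 2, Ctrl 3, cKO 1 or cKO 3 brought it to 0, where 4.68% to 4.95% of all genes passed. Without adjustment, 19 members had a p under 0.05, against 37.1% of all tested genes. In this main fit, the share of members past an adjusted p of 0.05 was below that of all genes. It was also below the 29.3% of 7312 genes at similar levels (9.66 to 72.4 CPM). The order against all genes depended on the fit. In DESeq2, 9 of 57 members passed an adjusted p of 0.05, where 12% of 32258 genes did. Without the filter on low counts, 12 of 57 passed, where 15.5% of 32263 genes did. In both of these fits the share of members was above that of all genes.

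The intervals show how large a difference each gene could still have had. For 44 of 57 members (77.2%) the whole 95% interval of the log2 fold change lay within 0.5 of 0, against 49.0% of all tested genes and 67.5% of the genes at similar levels. The groups did not overlap for 20 members (35.1%), 13 with every cKO library below every Ctrl library and 7 above, where 40.5% of all tested genes did not overlap (20.1% lower and 20.4% higher). Counts were also simulated at the depth of these libraries, with the same dispersion for every gene and 100 of 17540 genes changed at each size. On them the same test found 57 of 100 genes changed by 0.5 on the log2 scale and 100 of 100 changed by 1. In the real data 25.1% of all genes passed and dispersions differed between genes, so these shares do not measure the power for the members. A missing call alone does not exclude a change of the smaller size. In bulk tissue, fewer cells of a type and less RNA per cell cannot be told apart.

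**Figure D3:**
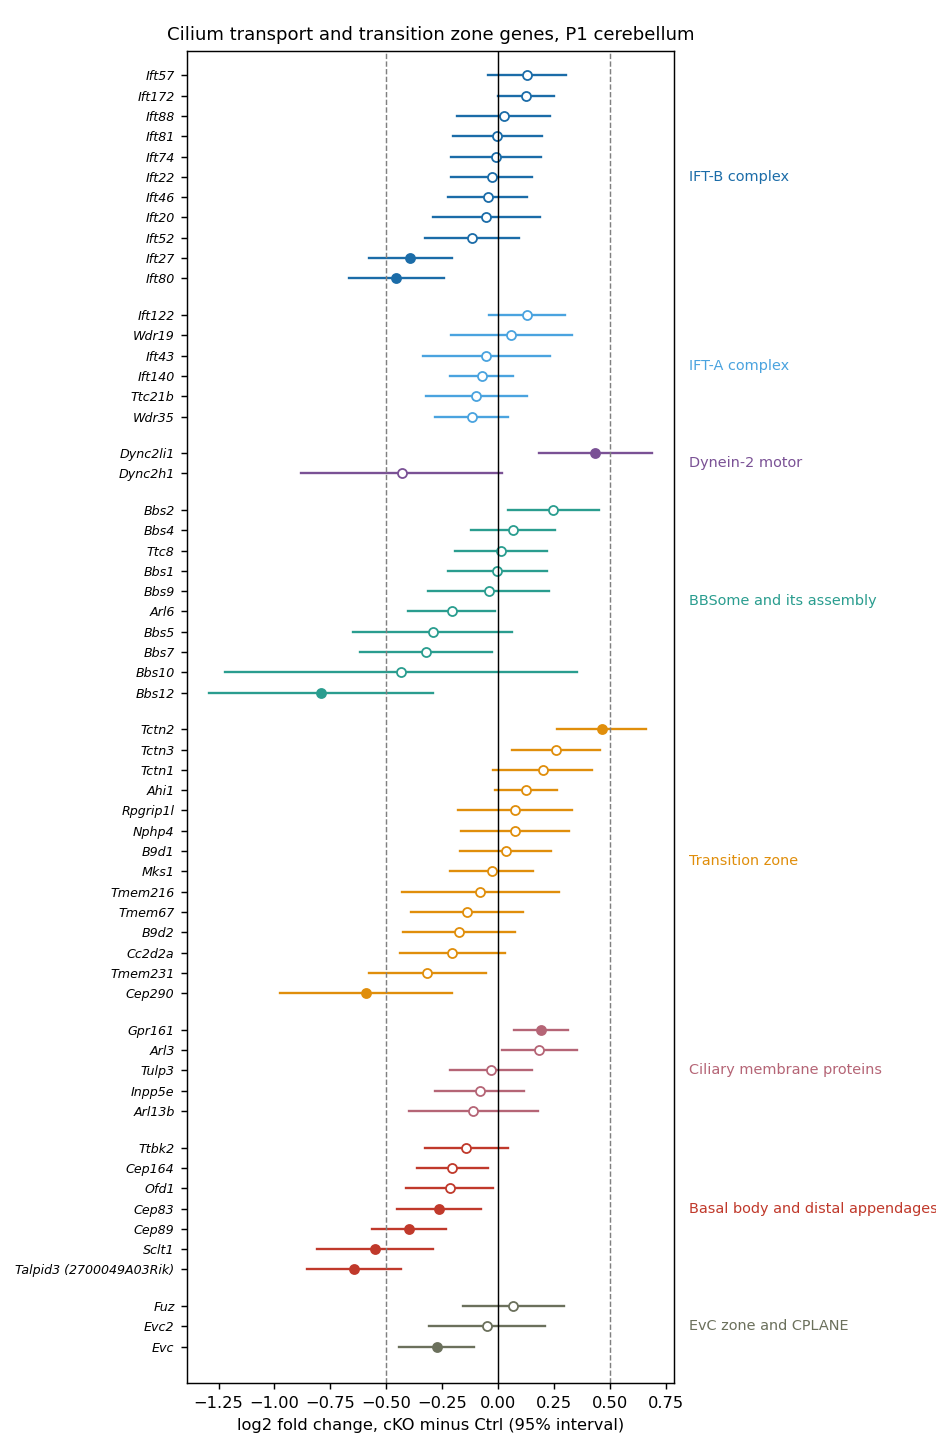
The log2 fold change (horizontal axis, cKO minus Ctrl, 3 libraries each) of the 57 cilium genes and *Talpid3*, with 95% intervals, ordered within each complex. Filled circles passed an adjusted p of 0.05 in edgeR, dashed lines mark 0.5 in either direction, and 44 of the 57 intervals lie between them, with all basal body genes left of 0.

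IFT-B, the train that carries tubulin and other cargo towards the tip, was measured through 11 genes with a median log2 fold change of -0.03, and 2 of them fell. *Ift80* (chr3:68892499-69004570), a subunit of the peripheral part of the train, had 23.2, 24.4 and 22.5 CPM in Ctrl and 16.9, 18.8 and 15.4 CPM in cKO. Every cKO library was below every Ctrl library. The log2 fold change was -0.46 (SE 0.10, 95% interval -0.67 to -0.24, edgeR adjusted p = 0.00657). *Ift27* (chr15:78159463-78174107), a small GTPase that links the train to BBSome exit and whose core motif is shown above, had 32.1, 31.1 and 30.4 CPM in Ctrl. Its cKO libraries had 23.5, 22.2 and 25.7 CPM, again with no overlap, and its log2 fold change was -0.39 (SE 0.08, edgeR adjusted p = 0.00719). The other 9 IFT-B genes did not pass the test, and each of their intervals lay within 0.5 of 0. Among them, *Ift172* had 69.1, 66.3 and 65.8 CPM in Ctrl and 74.3, 69.7 and 75.3 CPM in cKO, with all cKO libraries higher and a log2 fold change of 0.12 (edgeR adjusted p = 0.14).

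No IFT-A gene passed the test. The 6 genes of this complex, which brings cargo back from the tip and loads membrane receptors, had a median log2 fold change of -0.06, and all 6 intervals lay within 0.5 of 0. *Ift122*, a core subunit and the member with the smallest p, had 37.4, 34.3 and 36.9 CPM in Ctrl and 40.8, 37.4 and 40.7 CPM in cKO. Its groups met at 37.4 CPM, and the log2 fold change was 0.13 (95% interval -0.04 to 0.30, edgeR adjusted p = 0.245).

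The 2 dynein-2 genes lay on opposite sides of 0. *Dync2li1* (chr17:84626496-84655558), the light intermediate chain of the retrograde motor, had 11.9, 14.4 and 13.1 CPM in Ctrl and 16.0, 19.6 and 17.7 CPM in cKO. All cKO libraries were higher, and the gene rose by a log2 fold change of 0.44 (SE 0.11, edgeR adjusted p = 0.0191), a call lost without any one of Ctrl 1, Ctrl 3, cKO 2 or cKO 3. *Dync2h1*, the heavy chain that holds the motor domain, had 31.5, 53.7 and 42.9 CPM in Ctrl and 26.0, 40.7 and 28.6 CPM in cKO. Its libraries spread widely within each group, with replicate 2 the highest in both, and the groups overlapped. The log2 fold change of -0.43 had an interval from -0.88 to 0.02 (edgeR adjusted p = 0.152), so neither no difference nor a fall by more than 0.5 lay outside it. *Dync2h1* passed an adjusted p of 0.05 in 4 of 16 alternative fits. Its log2 fold change was -0.64 without cKO 2 (edgeR adjusted p = 0.0258), -0.61 without Ctrl 1 (edgeR adjusted p = 0.0388) and -0.43 without the filter on low counts (edgeR adjusted p = 0.000525). The remaining fit had the replicate number as a block.

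For the BBSome and its assembly factors the median over 10 genes was -0.12, and 1 gene fell. *Bbs12* (chr3:37312554-37321453), a chaperonin-like assembly factor, was among the lowest members, at 4.75, 4.1 and 5.71 CPM in Ctrl and 2.88, 2.15 and 3.36 CPM in cKO. No cKO library reached the lowest Ctrl library. Its log2 fold change of -0.79 was the largest of all members in size but also among the least precise (SE 0.22, 95% interval -1.29 to -0.29, edgeR adjusted p = 0.0274), and in 4 of the 6 fits that left out 1 library (Ctrl 1, Ctrl 3, cKO 1 or cKO 2) it no longer passed. *Bbs7* (-0.32) and *Arl6* (-0.21), the GTPase that brings the coat to membranes, and *Bbs2* (0.25) had edgeR adjusted p-values of 0.104, 0.115 and 0.0736. Subunits of one coat thus lay on either side of 0, and the log2 fold changes in this set ran from -0.79 to 0.25.

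The transition zone gave 14 genes with a median of 0.00, 7 below 0 and 7 above, of which 1 fell and 1 rose. *Cep290* (chr10:100487558-100574840), which forms part of the links between microtubules and membrane, had 15.4, 22.2 and 18.1 CPM in Ctrl and 9.98, 15.2 and 11.9 CPM in cKO. The groups were separate by a narrow margin, and as for *Dync2h1* replicate 2 was the highest library of both. The gene fell by 0.59 on the log2 scale (SE 0.17, edgeR adjusted p = 0.0311), and no longer passed without any one of Ctrl 2, Ctrl 3, cKO 1 or cKO 3. Of its exon bases, 7.58% overlap a gene on the opposite strand, and reads shared between them could not be assigned here.

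*Tctn2* (chr5:124598749-124627738), one of the tectonic proteins of the gate, moved the other way. It had 13.3, 12.8 and 13.5 CPM in Ctrl and 18.7, 17.4 and 18.7 CPM in cKO. The libraries of each group were close together and far from those of the other. The gene rose by 0.47 (SE 0.09, edgeR adjusted p = 0.00424). Its relatives *Tctn3* (0.26) and *Tctn1* (0.20) had edgeR adjusted p-values of 0.0564 and 0.173, and 19.0% of the exon bases of *Tctn1* overlap another gene. *Tmem231*, a membrane protein of the gate, had 16.2, 16.4 and 15.9 CPM in Ctrl and 14.9, 11.1 and 12.8 CPM in cKO. All its cKO libraries were lower, with a log2 fold change of -0.32 and an edgeR adjusted p of 0.0754.

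Among 5 ciliary membrane proteins, *Gpr161* (chr1:165295789-165326745), a G protein-coupled receptor that holds Hedgehog signalling down from within the cilium, had 89.6, 82.8 and 91.2 CPM in Ctrl and 100, 99.0 and 102 CPM in cKO. The groups were separate, and the gene rose by 0.19 (SE 0.05, 95% interval 0.07 to 0.31, edgeR adjusted p = 0.0271). It no longer passed without any one of Ctrl 1, Ctrl 2, cKO 1 or cKO 3. *Arl13b*, a GTPase of the ciliary membrane whose protein is a common stain for cilia, had 16.4, 16.5 and 12.7 CPM in Ctrl and 12.5, 15.4 and 14.4 CPM in cKO. Those groups overlapped, and the log2 fold change of -0.11 (95% interval -0.40 to 0.18, edgeR adjusted p = 0.58) left changes of either sign possible. *Arl3* lay higher in every cKO library (57.7, 62.4 and 71.0 against 72.7, 71.4 and 73.3 CPM), with a log2 fold change of 0.19 and an edgeR adjusted p of 0.104. For *Inpp5e*, the lipid phosphatase that *Arl13b* helps deliver, 20.3% of exon bases overlap *Pmpca*, and its log2 fold change was -0.08 (edgeR adjusted p = 0.553).

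All 6 basal body genes lay below Ctrl. Each had a log2 fold change below 0, from -0.14 to -0.55 with a median of -0.24, and 3 of the 6 fell at an adjusted p under 0.05, where 12.9% of all tested genes did. In 5 of 6 genes every cKO library was below every Ctrl library, as in 20.1% of all tested genes. Per library, the median of the 6 genes relative to the Ctrl mean was -0.08, 0.07 and -0.01 in Ctrl and -0.29, -0.28 and -0.31 in cKO on the log2 scale. The direction is a description of these 6 genes, and no test was made between complexes. It did not extend to every gene of the mother centriole. Outside the 58 names, the distal appendage gene *Fbf1* and the centriole gene *Odf2* had log2 fold changes of 0.0025 and 0.0056 (edgeR adjusted p = 0.977 and 0.949). Of the 19 centriole, satellite and cap genes outside the list, 12 lay below 0 and 7 above, with a median of -0.17. An adjusted p of 0.05 was passed by 5 of the 19 (26.3%), 4 lower and 1 higher, beside 25.1% of all tested genes. The stricter rule was passed by 3 (15.8%), all lower and described below, beside 6.66% of all tested genes.

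Distal appendages, the blades by which the mother centriole docks to the membrane, are built in a hierarchy that *Cep83* begins and *Cep89*, *Sclt1* and *Cep164* extend. *Sclt1* (chr3:41626720-41742514) had 18.3, 21.4 and 21.2 CPM in Ctrl and 11.9, 15.4 and 14.3 CPM in cKO. All cKO libraries were lower, and the gene fell by 0.55 (SE 0.12, 95% interval -0.81 to -0.29, edgeR adjusted p = 0.00713). *Cep89* (chr7:35397035-35438689) had 32.4, 32.2 and 31.8 CPM in Ctrl and 24.5, 23.6 and 25 CPM in cKO. These libraries formed 2 tight groups, and the fall of 0.40 on the log2 scale had the smallest p of all members (SE 0.07, edgeR adjusted p = 0.00355).

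*Cep83* (chr10:94688654-94790853) had 45.7, 54.6 and 48.2 CPM in Ctrl and 40.5, 43.7 and 39.5 CPM in cKO, without overlap, and fell by 0.26 (SE 0.08, edgeR adjusted p = 0.0458). This call was lost without any one of Ctrl 2, Ctrl 3, cKO 1 or cKO 3, and in DESeq2. *Cep164*, which recruits the kinase *Ttbk2* to the appendages, had 57, 53.2 and 54.2 CPM in Ctrl and 49.5, 44.2 and 49.0 CPM in cKO. Its groups were also separate, but its log2 fold change of -0.20 had an edgeR adjusted p of 0.0611. *Ofd1*, a protein of the distal centriole, was lower in every cKO library with a log2 fold change of -0.22 (edgeR adjusted p = 0.0992). *Ttbk2* itself, which releases the cap that blocks growth of the cilium, overlapped between groups at -0.14 (edgeR adjusted p = 0.248), and 29.9% of its exon bases lie in *Cdan1* on the same strand.

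*Talpid3*, read as *2700049A03Rik*, encodes a centrosomal protein needed for cilium formation and Hedgehog signalling. It had 18.9, 21.0 and 18.1 CPM in Ctrl and 12.3, 12.5 and 12.2 CPM in cKO. The cKO libraries were nearly equal, and all lay far below the Ctrl libraries. The gene fell by 0.64 (SE 0.09, 95% interval -0.86 to -0.43, edgeR adjusted p = 0.00103). With it, 12 of 58 genes (20.7%) passed an adjusted p of 0.05 and 2 of 58 (3.45%) the stricter rule, still below the 25.1% and 6.66% of all tested genes.

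Of the 3 genes of the EvC zone and the CPLANE complex, *Evc* (chr5:37289098-37336894), which with *Evc2* relays Smoothened activity near the ciliary base, fell. It had 32.3, 30.8 and 31.5 CPM in Ctrl and 26.6, 26.5 and 25 CPM in cKO. The groups were well apart, with a log2 fold change of -0.27 (SE 0.07, edgeR adjusted p = 0.0232), although the call was lost without any one of Ctrl 1, Ctrl 3, cKO 1 or cKO 3, and in DESeq2. The median of this set was -0.05, and the groups overlapped for *Evc2* and for *Fuz*, of whose exon bases 24.1% overlap a gene on the opposite strand.

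**Figure D4:**
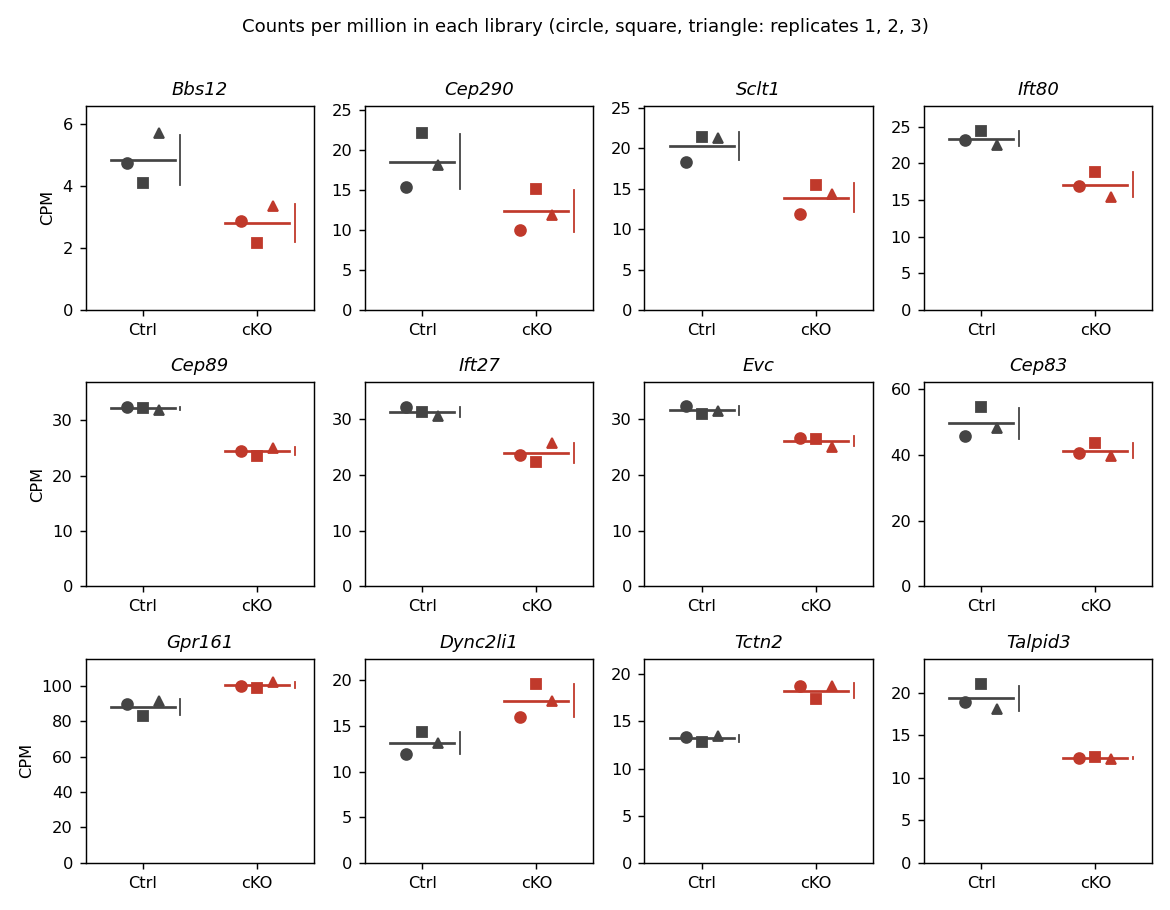
CPM (vertical axis, from 0) in each Ctrl and cKO library for the 11 cilium genes past an adjusted p of 0.05 and for *Talpid3*, with horizontal bars at the mean and vertical bars of 1 SD (n = 3). In every panel the Ctrl and cKO libraries do not overlap, with *Gpr161*, *Dync2li1* and *Tctn2* higher in cKO and the others lower.

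The 8 genes that fell had a median GC content of 42.9% in their longest transcript, the 3 that rose 50% and the other 46 members 47.7%. Across the 57 members the rank correlation of GC content with the log2 fold change was 0.262, and across 17492 tested genes 0.205; genes are not independent replicates. With the GC trend over all genes removed, an alternative chosen after seeing the data, 11 members again passed an adjusted p of 0.05 (25.4% of all genes). *Bbs12* and *Cep83* were no longer among them, and no member passed the stricter rule (6.63% of all genes). The median of the basal body genes was then -0.21.

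Other cilium genes outside the 58 names had a median log2 fold change of -0.07. Of 62 tested, 12 (19.4%) passed an adjusted p of 0.05, 9 lower and 3 higher, and 3 (4.84%) passed the stricter rule, both below the 25.1% and 6.66% of all tested genes. These 3 act together in capping the mother centriole. *Ccp110*, the capping protein, had 96.1, 109 and 102 CPM in Ctrl and 54.3, 67.3 and 57.6 CPM in cKO. No library overlapped, and it fell by 0.78 (SE 0.08, edgeR adjusted p = 0.000182). Its partners *Cep97* and *Kif24* fell by 0.51 and 0.60, *Kif24* being named after its values were seen. *Ccdc66*, a centriolar satellite protein, fell by 0.43, but 39.1% of its exon bases overlap *Fam208a* on the opposite strand.

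Among motors and IFT genes outside the list, the kinesin-2 genes *Kif3c* and *Kifap3* rose by 0.23 and 0.18 while *Ift56* fell by 0.32. The kinesin-2 motor genes *Kif3a* (0.12), *Kif3b* (0.11) and *Kif17* (0.15) did not pass (edgeR adjusted p = 0.128, 0.105 and 0.503). *Rpgr* of the transition zone fell by 0.35. For *Kif3c*, 35.3% of exon bases overlap another gene. Hedgehog components of the cilium, *Ptch1* and *Smo*, fell by 0.33 and 0.26, and the ciliary kinase *Ick* by 0.22. *Gli1*, a target of the pathway, fell by 0.53 (edgeR adjusted p = 0.00156). *Adcy3*, the cyclase used as a stain for neuronal cilia, had 25.9, 25.8 and 24.3 CPM in Ctrl and 26.9, 25.9 and 27.7 CPM in cKO, with a log2 fold change of 0.08 (95% interval -0.09 to 0.25, edgeR adjusted p = 0.479). Its groups met at 25.9 CPM, and 22.1% of its exon bases overlap *Cenpo*. *Cep131*, a satellite protein, had a log2 fold change of -0.11 (edgeR adjusted p = 0.386), and the 3 BBSome partners outside the list did not pass.

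The kinases and partners of cilium disassembly included larger differences, with 4 of 6 genes past the stricter rule that 6.66% of all tested genes passed. *Aurka*, *Nek2* and *Plk1*, which also act in mitosis, fell by 1.05, 0.80 and 0.73, whereas *Nedd9*, named after its values were seen, rose by 0.54. Of 11 ciliary transcription factors, 5 passed an adjusted p of 0.05, against 25.1% of all tested genes. *Foxj1*, the regulator of motile cilia, had 38.1, 32.7 and 28.3 CPM in Ctrl and 57.3, 65.2 and 64.3 CPM in cKO, and rose by 0.91 (SE 0.11, edgeR adjusted p = 0.000288). Of the RFX factors, *Rfx4* rose by 0.29, *Rfx2*, named after its values were seen, rose by 0.30, and *Rfx7* fell by 0.53. *Rfx1* (0.12), *Rfx3* (-0.23) and *Rfx5* (-0.05) did not pass (edgeR adjusted p = 0.334, 0.388 and 0.697).

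Cell type markers moved in the same libraries by larger amounts. All 8 granule neuron progenitor markers passed the stricter rule and fell, with a median of -1.35, and *Atoh1* had 32.6, 32.0 and 30.9 CPM in Ctrl and 0.577, 0.261 and 0.249 CPM in cKO. Postmitotic granule neuron markers had a median of -0.76 (5 of 6 fell). That list holds *Pax6*, which the paper reported in progenitor clusters as well, so it does not measure postmitotic cells alone. Purkinje cell markers had a median of 0.63 (5 of 6 rose, 1 fell) and astrocyte and Bergmann glia markers of 0.41 (6 of 8 rose). Endothelium and meninges markers had a median of -0.07, with 2 of 8 higher and 1 lower. The collagen genes *Col1a1* and *Col1a2* rose by 0.85 and 0.77 (edgeR adjusted p = 0.00017 and 9.85e-05), and *Kdr* fell by 0.23. The sum of this list was 627.3 to 663.4 CPM in Ctrl and 788.8 to 875.5 CPM in cKO, so its median does not describe every gene in it. Multiciliated and ependymal cell markers, the genes of cells that carry many motile cilia, lay higher in 16 of 16 with a median of 0.80, and 10 passed an adjusted p of 0.05. Their summed level was 85.5 to 106.6 CPM in Ctrl and 155.1 to 173.0 CPM in cKO, with *Ak7* and *Rsph4a* among the genes that rose. Since cells with motile cilia also express IFT, BBSome and basal body genes, this sum is given beside the member values; its part in them was not tested, nor was that of the granule lineage markers.

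**Figure D5:**
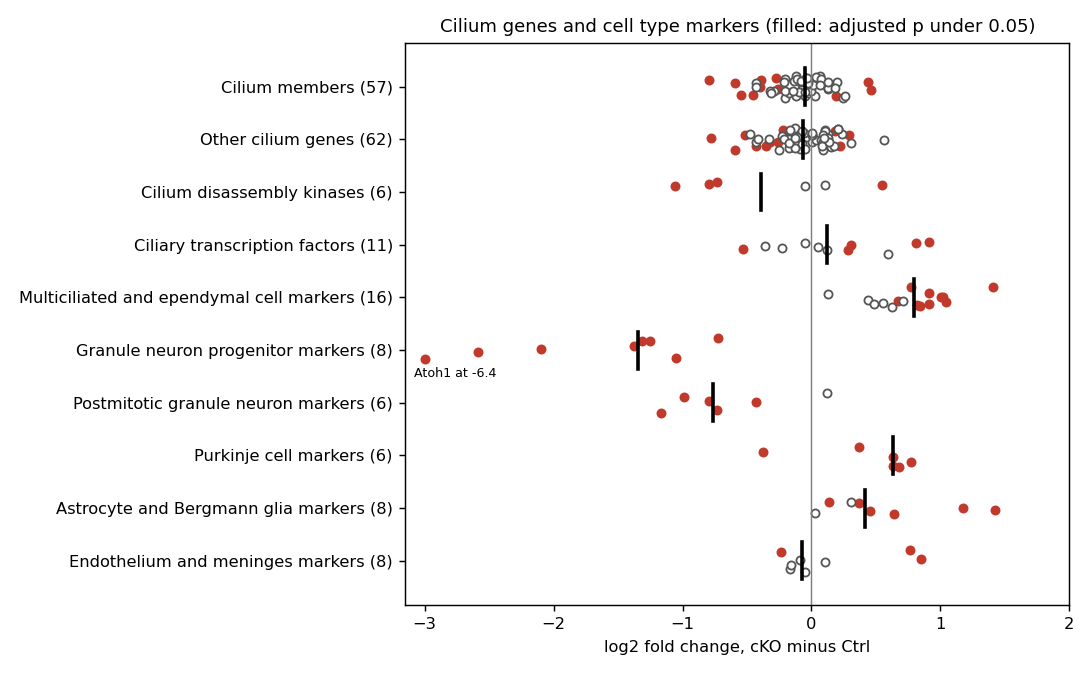
The log2 fold change (horizontal axis, cKO minus Ctrl, edgeR) of each gene in the cilium set and in the lists of other cilium genes and cell type markers, with the number of tested genes in brackets and a black bar at the median. The 57 cilium genes cluster around -0.05, whereas the granule neuron progenitor markers lie around -1.35 and the multiciliated cell markers around 0.80, and *Atoh1* is drawn at the edge of the axis.

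The libraries held 15391854 to 17178478 counts, and 3 counts corresponded to at most 0.196 CPM. Markers of Purkinje cells (*Calb1*), granule cells and their progenitors (*Pax6*) and Bergmann glia (*Slc1a3*) were present in all 6 libraries. The choroid plexus epithelium, a tissue beside the cerebellum, varied by library, and its 8 markers summed to 133.3 to 201.4 CPM in Ctrl and to 224.6, 38.65 and 780.1 CPM in cKO 1, 2 and 3. *Ttr*, named after its values were seen, carried most of the spread, at 67.7 to 131 CPM in Ctrl and 181, 6.06 and 711 CPM in cKO. Of the 8 markers 7 had a log2 fold change above 0. *Otx2* alone lay below 0 and was lower in every cKO library, from 55.5, 49.0 and 54.2 to 24.7, 22 and 24 CPM (edgeR adjusted p = 1.81e-05). The sum thus mixes opposite directions and does not measure the choroid plexus alone. Genes of the Y chromosome were read in 1 Ctrl and 2 cKO libraries, so both groups held both sexes. The *Tox3* count did not separate the groups, at 64.3, 63.0 and 64.4 CPM in Ctrl and 55.3, 63.2 and 59.2 CPM in cKO (log2 fold change -0.11, edgeR adjusted p = 0.252). A count over the whole gene need not show loss of the floxed part, so it does not check the labels.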

How the data were processed

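Bulk mRNA was measured in 3 Ctrl and 3 cKO libraries, grouped by their labels. The authors deposited raw counts per gene and FPKM values. Per the submitters' processing notes, reads were aligned to mm10 with HISAT2 2.0.5 and counted with featureCounts 1.5.0-p3. Strandedness, multi-mapping and the gene annotation used are not given in the sources used here, so overlapping genes may share reads. The authors made the FPKM values from counts and gene length, and these served here for levels between genes only.

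The counts were fitted with the quasi-likelihood test of edgeR 4.0.16 in R 4.3.3 (two-sided, TMM scaling, filterByExpr), with Benjamini-Hochberg adjustment over 17505 genes. CPM values use TMM-scaled totals. The common dispersion was 0.0105. Intervals are the estimate with its standard error times the t quantile of the fit. The fit was tested on simulated counts for 17540 genes. With 3 libraries against 3, a permutation of labels cannot reach a two-sided p under 0.1, so p-values rest on the model across genes. Libraries of a group differed by more than sampling noise.

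The members and lists were chosen with earlier results of these data known. Values in every library are given for members past an adjusted p of 0.05 and for the member of smallest p in each complex. The highest and lowest member by FPKM are named, and of other lists at most 3 genes of smallest p plus *Tox3*, *Atoh1*, *Adcy3*, *Arl13b*, *Cep131*, *Foxj1* and *Gli1*. Other members near a threshold, *Dync2h1*, *Fbf1*, *Odf2*, *Kif3a*, *Kif3b*, *Kif17*, *Rfx1*, *Rfx3* and *Rfx5* were added after their values were seen. Exon overlaps and GC content came from GENCODE vM21, in which 190 of 197 listed genes had the deposited start and end. Promoters came from RefSeq (GRCm38.p6), and *Ift80*, *Ift81*, *Ift122*, *Dync2li1* and *Tmem67* had no window. Gene coordinates are those of the deposited table (mm10). Alternatives were DESeq2 1.42.0, other size factors and filters, limma-trend (limma 3.58.1) on log2(FPKM + 1) and log2(FPKM + 0.1), the replicate block, each library left out, a Y-chromosome covariate, other thresholds and, after seeing the data, removal of the GC trend.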

Additional observations from a re-analysis of the deposited data

How the results depend on the processing

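Over 16 alternative fits, *Ift27*, *Tctn2*, *Cep89*, *Sclt1* and *Talpid3* passed an adjusted p of 0.05 in all, *Ift80* in 15, *Dync2li1* and *Gpr161* in 12, *Bbs12* in 11, *Cep290* in 10, *Evc* in 9 and *Cep83* in 7, and none of these changed sign. Of the 46 members not past it, 10 passed in at least 1 alternative and 18 changed sign in at least 1. The count past both thresholds (1, beside 6.66% of all genes) was 2 in DESeq2 (3.72% of all genes in that fit). It was 3 without the filter on low counts (4.82%) and 2 with the replicate block (7.18%). It was 0 in both limma-trend fits of FPKM (4.4% and 5.24%), with the GC trend removed (6.63%) and in glmTreat against 0.5. With 1 library left out it ran from 0 to 4, where 4.68% to 7.48% of all genes passed. The count past an adjusted p of 0.05 (11) was 5 at an adjusted p of 0.01, 7 on log2(FPKM + 0.1) and 6 to 13 with 1 library left out, lowest without cKO 3 and highest without cKO 2. The 8 lower genes became 5 on log2(FPKM + 1), 4 on log2(FPKM + 0.1) and 5 to 9 with 1 library left out; the 3 higher genes became 5 with the Y-chromosome covariate and 1 to 4 with 1 library left out (1 without Ctrl 1 or cKO 3). The replicate block gave 14 past an adjusted p of 0.05 (10 lower, 4 higher), where 29.5% of all genes passed. *Dync2h1* was among them at -0.42 (edgeR adjusted p = 0.00358). Correlations of same-numbered libraries were 0.24, 0.26 and -0.16, and those of other Ctrl and cKO libraries ran from -0.42 to 0.27. With 3 libraries per group, these values cannot show whether same-numbered libraries were paired. Removing the GC trend gave medians of -0.030 for IFT-A, -0.063 for the BBSome and -0.12 for the EvC zone, which was -0.0015 with the Y-chromosome covariate. With 1 library left out, medians ran from -0.21 to -0.059 for the BBSome, -0.16 to 0.0205 for the EvC zone, -0.0713 to -0.0222 for IFT-A, -0.0669 to -0.0085 for IFT-B, -0.0438 to 0.0492 for the transition zone and -0.28 to -0.21 for the basal body. The cause of these changes was not tested. Groups of 3 and counts from 25 upward limit the precision, most for *Bbs10* and *Bbs12*.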
